A study of Mus musculus with 32 samples.

Results

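In mouse embryonic stem (mES) cells driven toward primitive endoderm (PrE) by GATA6, 147 of the 25093 genes with a symbol in the table had their highest level at 96 h by a wide margin. They were selected on the deposited log2-scale values: the mean of the 4 replicates at 96 h had to be at least 6 and to exceed the mean at each of the 7 earlier time points by at least 1.5. The choice therefore fixes that every one of these genes was highest at 96 h, and the 96 h levels below are given as a description with no test. Of the 147, 146 are annotated as protein coding and 1 (*Peg13*) as a sense intronic RNA, and they lie on 20 chromosomes, the autosomes and X.

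The cells were of 1 line, KH2, labelled C57BL/6, and all samples carried the same transgene, a tetracycline-responsive element driving GATA6 with a DsRed2 reporter. The 0 h samples had no doxycycline (Dox) and were kept in 2i medium (MEK and GSK3 inhibitors) with LIF. For 2, 4 and 8 h the cells were in serum medium with LIF and Dox at 1 µg/ml, and for 16, 24, 48 and 96 h they had Dox for 12 h and then serum medium without Dox. The switch to serum medium and the addition of Dox coincide, so a change from 0 h to any later time point cannot be assigned to either. There were 4 replicates at each of the 8 time points, 32 samples in all, with 3190108 to 12301732 reads on genes per sample. The study describes its replicate experiments as independent, but the labels do not say that the replicates were separate cultures, so the p-values measure only the spread between these samples. In bulk RNA, fewer cells that transcribe a gene and less RNA of it per cell cannot be told apart. Mean normalized counts of *Gata6* were 0.371 (0 h), 1210.2 (48 h) and 2067 (96 h). The summed level of 10 PrE markers was 214569 to 299115 at 96 h against 631 to 902 at 0 h. That of 10 mES markers was 5319 to 5850 against 37588 to 44875. The fall was uneven: *Nanog* went from 5875 (0 h) to 60.1 (96 h) and *Klf4* from 2258 to 1005, while *Tbx3* was at 1453 and 1628.

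PrE, the extra-embryonic layer that forms beside the epiblast, gives rise to the visceral endoderm, which absorbs and secretes nutrients, and to the parietal endoderm, whose migrating cells lay down the thick basement membrane called Reichert's membrane. Parietal endoderm is known for laminins and type IV collagens, for the simple keratins 8 and 18, and for proteins that control blood clotting at the interface with maternal blood. Filamins, calponins and myosin light chains belong to the machinery by which cells pull on their substrate. Many of their genes, and those of the matrix-associated CCN proteins, respond both to serum and to cell tension.

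"Switched on only after 48 h" describes few of these genes. Levels are given as normalized counts, which are reads scaled so that samples of different depth can be compared, as mean ± SD (n = 4 replicates) or as the values of replicates 1 to 4 in that order. Only 11 genes had a mean under 10 at every one of the 7 earlier time points, 136 had 10 or more at some earlier time point and 64 had 100 or more. No gene had 3 reads or fewer in every one of the 28 earlier samples. The 48 h level was a median of 20.3% of the 96 h level, between 1.27% (*Mpeg1*) and 35.5%, and 58 genes already had at least 25% of their 96 h level at 48 h. For 117 genes the next-highest time point was 48 h, and for the other 30 it was earlier: 24 h for 5, 16 h for 3, 8 h for 6, 4 h for 6, 2 h for 7 and 0 h for 3. Over its next-highest time point, the 96 h level was 2.82 to 48.3 times as high, with a median of 4.21. All 4 samples at 96 h lay above all 28 earlier samples for each of the 147 genes, which largely restates their choice. Within a single replicate number, the rule itself was met by 127, 133, 117 and 109 of the 147 (replicates 1 to 4). Together these genes held 0.0736 to 0.0871% of the reads (0 h), 0.131 to 0.151% (24 h), 0.343 to 0.451% (48 h) and 1.55 to 1.74% (96 h).

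**Figure D1:**
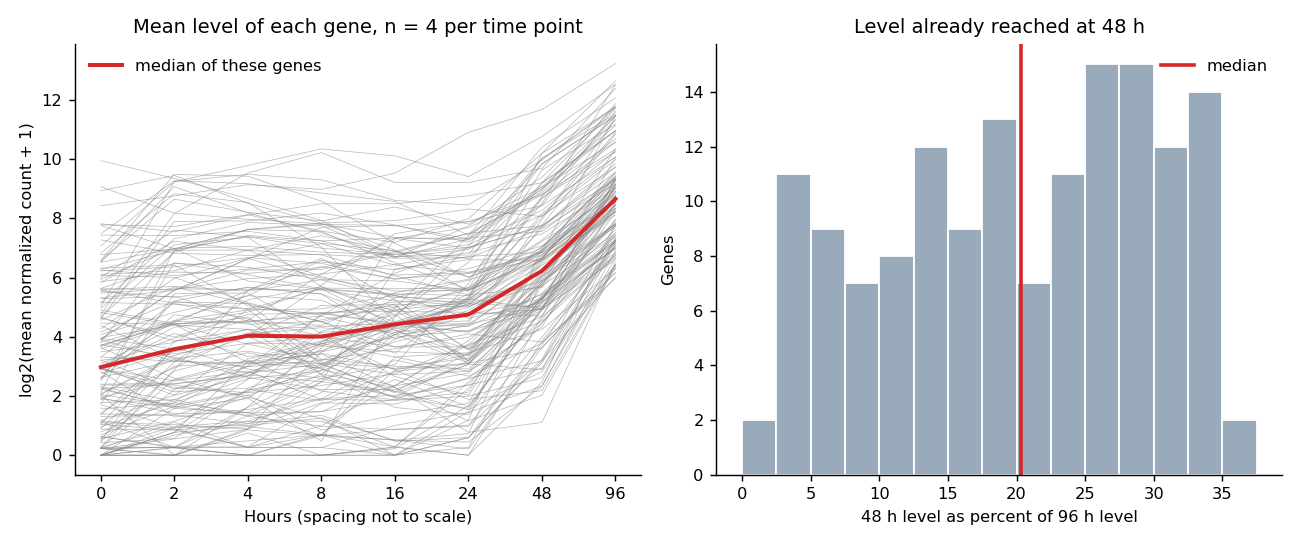
Left, mean level of each of the 147 genes (grey, log2 of the mean normalized count + 1, n = 4) at the 8 time points, with their median in red; right, histogram of the 48 h level as a percent of the 96 h level. The median line climbs from 2.97 (0 h) through 4.75 (24 h) and 6.23 (48 h) to 8.66 (96 h), and the 48 h levels spread from 1.27% to 35.5% around a median of 20.3%.

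Promoter sequence could be matched for 107 of the 147 genes, from RefSeq on GRCm38.p6, and the 250 bases before the annotated start were searched. TATAAA, the letters of a canonical TATA box, began 35 to 20 bases before the start on the sense strand in 6 of the 107 (5.61%), against 1.15% of the 10481 tested genes with a promoter and 2.05% of all 27025 promoters. These 6 are shown because they are the ones with the letters at the usual TATA distance. Each line gives the 60 bases before the start, 5′ to 3′ on the gene's own strand, with TATAAA in capitals.
*Flt1* (chr5:147726012-147726071, minus strand): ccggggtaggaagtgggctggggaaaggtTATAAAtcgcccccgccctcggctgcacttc
*Cemip* (chr7:84086506-84086565, minus strand): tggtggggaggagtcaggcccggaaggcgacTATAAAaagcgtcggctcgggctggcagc
*Wnt11* (chr7:98835052-98835111, plus strand): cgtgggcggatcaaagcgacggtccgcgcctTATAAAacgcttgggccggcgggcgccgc
*Slco2a1* (chr9:103008427-103008486, plus strand): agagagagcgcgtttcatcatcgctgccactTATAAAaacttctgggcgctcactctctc
*Igfbp4* (chr11:99041184-99041243, plus strand): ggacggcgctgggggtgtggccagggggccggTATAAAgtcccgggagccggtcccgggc
*Irf4* (chr13:30749173-30749232, plus strand): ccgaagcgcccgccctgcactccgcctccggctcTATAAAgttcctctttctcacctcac
The letters TGANTCA (N being any base), which include the site that AP-1 factors bind, were found on either strand in 9 of the 107 (8.41%), against 4.08% of the tested genes and 6.87% of all promoters. The promoter of *F3* held them 2 times within 60 bases, from 160 to 101 bases before the start, and is shown for that reason with both in capitals.
*F3* (chr3:121723377-121723436, plus strand): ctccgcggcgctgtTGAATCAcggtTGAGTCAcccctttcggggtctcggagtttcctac
The other strings were GATAA, the core that GATA factors bind, in 15.0% of the 107 against 14.3% of tested genes, CCAAT in 25.2% against 36.9%, AGGTCA in 16.8% against 10.4% and CACGTG in 6.54% against 8.48%, each on both strands. Their shares over all promoters were 23.02%, 34.5%, 13.8% and 6.05%. CpG was depleted (observed over expected under 0.4) in 31.8% of the 107 promoters, 16.8% of those of tested genes and 51.8% of all promoters. A match is a description of the letters in this window and no evidence of binding.

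Before 96 h the rule sets a ceiling on these genes at every time point, which the other tested genes do not carry. The same means enter the 3 earlier changes below. The shares of the 147 that rose or fell therefore depend in part on the choice, and how far was not tested. These changes were fitted with limma across 15227 genes, calling a gene at a false discovery rate under 0.1 and a change of at least 4-fold. The 147 are 0.965% of these genes, the share to set beside each count of them on a gene list below. All 147 genes passed the filter on low counts, 14 of them only through their 96 h samples. Where a test of 1 of these 14 is given below, as for *Vcam1*, the gene entered the fit only through the samples that selected it. Its p-value is then a description. From 24 to 48 h, 61 of the 147 rose (41.5%), against 2.51% of all tested genes that did, and 0 fell, against 1.41%. The median log2 fold change was 1.61 for the 147 and 0.00 for all tested genes. None of the 147 was lower at an unadjusted p under 0.05 either, and limma-voom on whole reads also called 0. From 0 to 24 h, 48 rose (32.7%, background 4.85%) and 3 fell (2.04%, background 4.34%; 21, or 14.3%, at the false discovery rate alone, background 30.7%), with a median log2 fold change of 1.23. From 0 to 2 h, 22 rose (15%, background 2%) and 0 fell (background 0.348%), while 11 were lower at an unadjusted p under 0.05 and limma-voom called 3. The median log2 fold change at 2 h was 0.33, or 0.23 when the 12 genes without a read in any 0 h sample were set at the bound that 3 reads over the group allow. In all, 100 genes rose in at least 1 of the 3 comparisons and 47 in none, 15 rose both from 0 to 24 h and from 24 to 48 h, and 42 rose from 24 to 48 h and in neither earlier comparison. Without the 14 genes that needed their 96 h samples to pass the filter, 53 of 133 rose from 24 to 48 h (39.8%), 46 from 0 to 24 h (34.6%) and 22 from 0 to 2 h (16.5%). Of the 15004 genes that pass on the earlier samples alone, a limit chosen after seeing the data, 2.25%, 4.83% and 2.03% rose in these comparisons. From 48 to 96 h, 92 of the 147 passed the same limits upward against a background of 1.3% and 0 downward against 2.4%, which restates the choice of the genes.

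**Figure D2:**
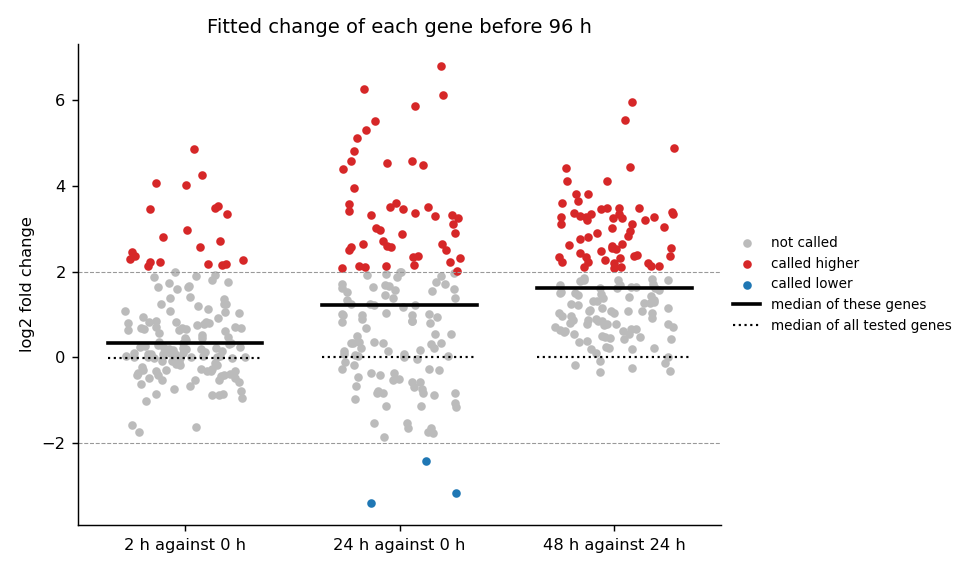
Fitted log2 fold change of each of the 147 genes (points) from 0 to 2 h, 0 to 24 h and 24 to 48 h, with called genes in colour, the median of the 147 as a solid bar, that of all 15227 tested genes as a dotted bar, and the 4-fold limits dashed. The solid bars stand at 0.33, 1.23 and 1.61, the 3 points below the lower limit are *Epas1*, *Adam19* and *Mpeg1* from 0 to 24 h, and from 24 to 48 h no gene is called lower.

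The replicates fell into 2 pairs. Replicates 1 and 2 of a time point were closer to each other, as were 3 and 4 (chi-square per degree of freedom 1.19 to 5.77, median 1.55 over 16 pairs), than to the other pair (5.83 to 16.995, median 10.5 over 32 pairs). At 96 h, 99 of the 147 (67.3%) were higher in both of replicates 3 and 4 than in both of 1 and 2, against 26.3% of all tested genes. The reverse was seen for 16 of the 147, against 26.1% of all tested genes. Their mean log2 level was higher in replicates 3 and 4 at all 8 time points, by 0.70 at 48 h and 0.23 at 96 h, while the corresponding means over all tested genes were 0.02 and -0.01. At 48 h 132 of the 147 (89.8%) were higher in replicates 3 and 4, against 51.7% of all tested genes. What set the pairs apart is not given in the sources used here. Within each pair alone, 53 genes rose from 24 to 48 h in replicates 1 and 2 and 65 in replicates 3 and 4, 50 and 49 rose from 0 to 24 h, and 22 and 25 rose from 0 to 2 h. The fall from 0 to 24 h was called for 9 and 4 genes, against 3 with all 4 replicates.

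**Figure D3:**
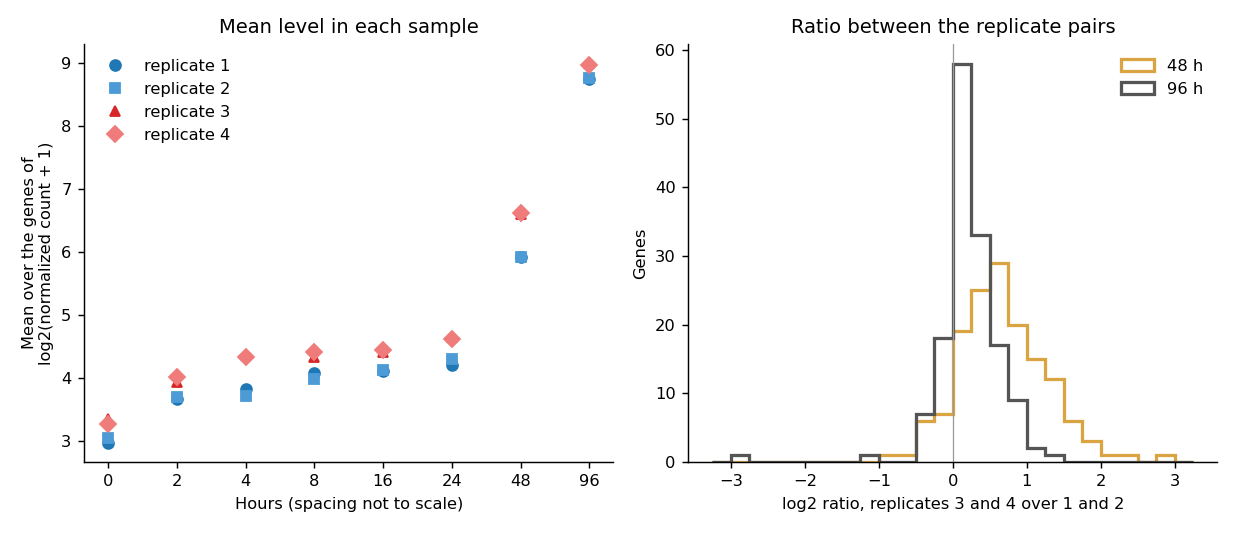
Left, mean over the 147 genes of log2(normalized count + 1) in each of the 32 samples, by time point and replicate; right, histogram of each gene's log2 ratio of replicates 3 and 4 over replicates 1 and 2 at 48 h and 96 h. At 48 h the 4 samples stand at 5.91, 5.92, 6.60 and 6.62, the widest gap between the pairs, and at 96 h at 8.75, 8.76, 8.99 and 8.97.

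Of these genes, 5 act in blood clotting or fibrinolysis, and 4 of them had risen by 24 h. Over the same interval 32.7% of the 147 and 4.85% of all tested genes rose. *Tfpi* (chr2:84432855-84476775, minus strand, GRCm38) encodes tissue factor pathway inhibitor, which blocks the start of clotting. Its normalized counts in replicates 1 to 4 were 417, 404, 268 and 283 (0 h), 1859, 1899.9, 1939 and 1976 (24 h), 3772, 3542, 2843 and 2913 (48 h) and 8416, 8587, 10526 and 10870.3 (96 h). The groups do not overlap from 24 h on, and the rise from 0 to 24 h passed the test (log2 fold change 2.51, SE 0.13, adjusted p = 7.04e-16). *F3* (chr3:121723537-121735048, plus strand) encodes tissue factor itself, the receptor that starts clotting and that TFPI restrains. It was at 35.9, 15.6, 17.7 and 24.6 (0 h), 216, 233, 256 and 245 (2 h), 125, 151, 142 and 161 (24 h), 423, 381, 540.1 and 591 (48 h) and 3355, 3441, 4022 and 4173 (96 h). *F3* thus rose within 2 h (log2 fold change 3.35, SE 0.16, adjusted p = 1.48e-16), held a plateau of 145 to 289 mean normalized counts through 24 h, and stood 7.75 times as high at 96 h as at 48 h.

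*Thbd* encodes thrombomodulin, the cell-surface protein that turns thrombin toward activating protein C, and *Procr* encodes the receptor on which protein C is activated. *Thbd* had means of 1.69 to 4.89 through 24 h. Its samples were at 16.02, 15.1, 41.3 and 42.3 (48 h) and 584, 562, 712 and 669 (96 h), and the step from 24 to 48 h passed the test (log2 fold change 3.34, SE 0.44, adjusted p = 3.09e-07). *Procr* rose from 3.2001 ± 1.604 (0 h) to 37.9 ± 5.96 (24 h, log2 fold change 3.32, SE 0.28, adjusted p = 1.76e-11), was at 29.8 ± 7.69 (48 h) and at 185, 175, 328 and 310.1 in the 4 samples at 96 h. *Plat*, tissue plasminogen activator, which converts plasminogen to the clot-dissolving enzyme plasmin, had a higher mean at each successive time point, from 7.104 ± 4.42 (0 h) through 205 ± 40.3 (24 h, log2 fold change 4.81, SE 0.26, adjusted p = 1.02e-15) to 2558 ± 204 (96 h). Of the 15 tested genes on a list of complement and coagulation genes, these 4 (*Tfpi*, *F3*, *Thbd*, *Procr*) were the ones among the 147. Among the other genes on it, the clotting factor genes *F7*, *F9*, *F11*, *F12* and *F13a1* had means of at most 0.27 at 96 h.

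*Krt8* and *Krt18* encode the partner keratins of simple epithelia and are neighbours on chromosome 15 with no gene between them. *Krt18* was at 27.6, 29.2, 24.2 and 45.3 (0 h) and 623, 636, 589 and 568 (2 h), a rise with no overlap (log2 fold change 4.25, SE 0.15, adjusted p = 1.83e-19). It then lay at 349 to 717 mean normalized counts until 24 h, and reached 1151, 1223, 809 and 835 (48 h) and 4014, 3878, 2869 and 2974 (96 h). *Krt8* was at 133, 115, 151 and 132 (0 h), 488, 481, 750.3 and 689 (2 h, log2 fold change 2.15, SE 0.21, adjusted p = 1.04e-09), 1565, 1515, 1937 and 1912 (48 h) and 6522, 6606, 5124 and 5368 (96 h). Both keratins were higher in replicates 1 and 2 than in 3 and 4 at 96 h, the opposite of most of the 147 genes. The table also holds a processed pseudogene of *Krt8* (*Krt8-ps*), at 118 at 48 h and 374 at 96 h, so some reads of this family may be shared between near-identical copies. Per kb of exon, the 96 h levels of *Krt8* (3016) and *Krt18* (2389.5) were the highest of the 147.

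**Figure D4:**
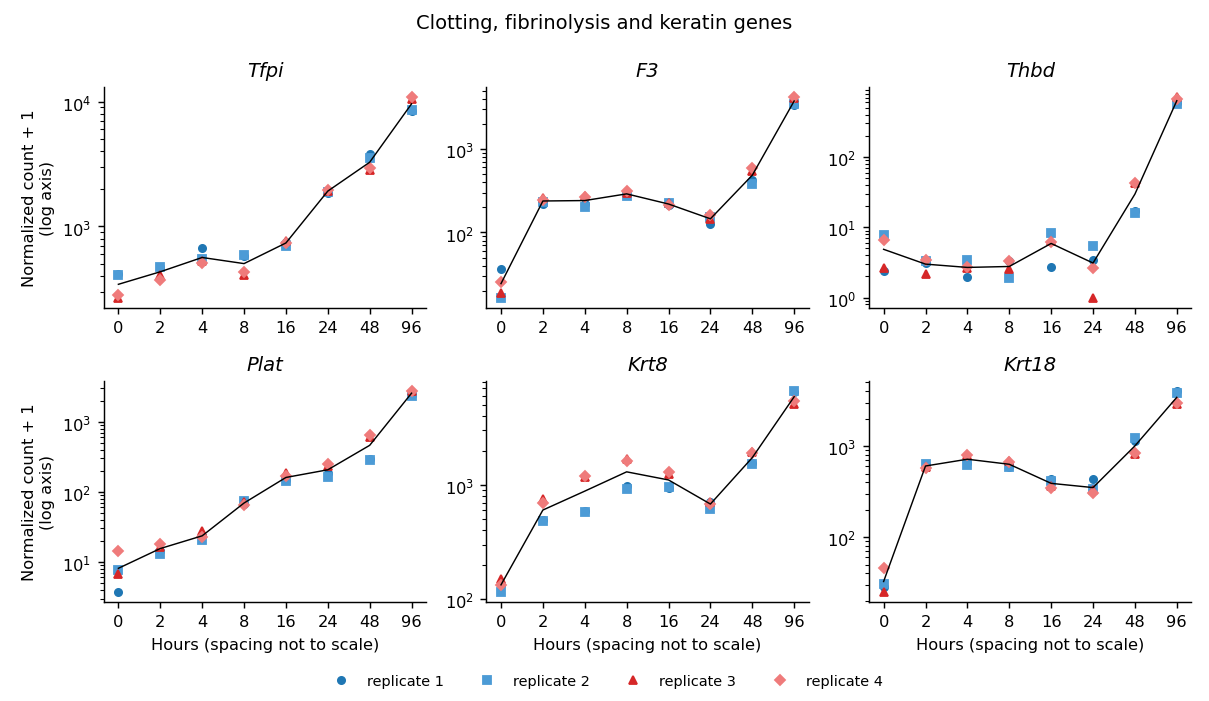
Normalized count + 1 (log axis) of 4 clotting and fibrinolysis genes and 2 keratin genes in each of the 32 samples, by replicate (symbols), with the mean as a line. *F3*, *Krt8* and *Krt18* step up at 2 h and again after 24 h, *Tfpi* and *Plat* climb later and more evenly, and *Thbd* stays under 10 in every sample until 48 h, when it is at 15.1 to 42.3.

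On a list of 26 tested parietal endoderm and basement membrane genes, 6 were among the 147 (*Tfpi*, *Krt8*, *Krt18*, *Plat*, *Fst* and *Thbd*). The structural proteins of the membrane itself were not: *Lama1* was at 56675 at 48 h and 80208 at 96 h, *Col4a1* at 56406 and 122854, and *Sparc* at 66186 and 113233. Limma's fitted log2 fold changes from 48 to 96 h were 0.55, 1.19 and 0.80. Of the 26, 15 rose and 1 fell from 0 to 24 h (median log2 fold change 2.33), against 4.85% and 4.34% of all tested genes. From 24 to 48 h 5 rose and 2 fell (median 1.30), against 2.51% and 1.41% of all tested genes. A fixed list of 10 parietal endoderm markers summed to 6895 to 7150 (0 h) and 215723 to 274211 (96 h). From 24 to 48 h, 3 of its 9 tested genes rose and 1 fell, beside the same shares of all tested genes. Of these markers, *Vim* was at 6431 (24 h), 1460 (48 h) and 1212 (96 h), and *Stc1* had no read at 96 h. None of the 147 genes, which are 0.965% of all tested genes, was on a list of visceral endoderm secreted proteins with 13 tested genes. A list of 10 markers of that tissue, with *Cubn* also on the PrE list, summed to 17.7 to 25.8 (0 h), 17146 to 40165 (48 h) and 14112 to 22180 (96 h). At 96 h the endocytic receptor genes *Cubn* and *Amn* were at 16994 and 462 and the transcription factor gene *Hnf4a* at 335. Of the 10, 5 were under 10, with *Afp* at 4.15 and *Apob* without a read. The part of visceral endoderm cells in the levels of the 147 was not tested.

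A group of 22 genes rose within 2 h of induction (15% of the 147, against 2% of all tested genes). For 17 of the 22 the 24 h mean was then below the 2 h mean. They were picked for a high 2 h value, so this depends in part on the choice. How often it held among all genes that rose at 2 h was not tested. The median level of the 22 as a percent of the 96 h level was 0.873% before induction, 7.82% after 2 h, 10.6% after 4 h, 4.57% after 24 h and 15.7% after 48 h. The 8 of them whose 24 h mean was below 50% of the 2 h mean were *Fhl2*, *Ctgf*, *Tspan2*, *Cyr61*, *Flt1*, *Tgfb1i1*, *Dusp8* and *Cemip*, all chosen from their values. *Thbs1*, encoding the adhesive matrix glycoprotein thrombospondin 1, had the largest rise at 2 h. It was at 5.52, 2.72, 3.22 and 1.89 (0 h), 141, 140.4, 109 and 97.7 (2 h), 58.9, 57.6, 71.1 and 66.05 (24 h) and 507, 508, 983 and 905 at 96 h (log2 fold change 4.87, SE 0.35, adjusted p = 2.04e-12 for the 2 h step).

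*Ctgf* (CCN2) and *Cyr61* (CCN1) encode matricellular proteins and are standard readouts of serum, tension and YAP activity. *Ctgf* was at 67.6, 68.6, 121 and 121 (0 h), 749, 675, 741 and 699 (2 h), 68.5, 57.6, 54.8 and 73.4 (24 h), 97.1, 97.98, 139.9 and 127 (48 h) and 1980.0, 2077, 3776 and 3449 (96 h). It rose at 2 h (log2 fold change 2.96, SE 0.23, adjusted p = 1.11e-11), and its 24 and 48 h samples overlapped the range at 0 h. *Cyr61* was at 81.4, 80.2, 109 and 90.7 (0 h), 581, 559, 503 and 506 (2 h, log2 fold change 2.57, SE 0.20, adjusted p = 2.05e-11), 174, 229, 238 and 210.4 (24 h) and 2354, 2309.7, 4733 and 4429 (96 h). For both, replicates 3 and 4 were at 96 h well above replicates 1 and 2, and even the lower pair exceeded every earlier sample.

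*Fhl2* encodes a LIM protein of focal adhesions and the nucleus. It was at 4.14, 2.04, 3.22 and 9.44 (0 h), 58.2, 66.4, 119.6 and 115 (2 h, log2 fold change 4.08, SE 0.39, adjusted p = 1.07e-09), 14.4, 10.01, 22.3 and 22.02 (24 h) and 543, 508, 582 and 621 (96 h). *Zyx* (zyxin) and *Tgfb1i1* (HIC-5) are also LIM proteins of adhesion sites, and both rose at 2 h (log2 fold change 2.22, SE 0.20, adjusted p = 3.79e-10 for *Zyx* and log2 fold change 2.804, SE 0.47, adjusted p = 1.88e-05 for *Tgfb1i1*). *Myl9*, the regulatory light chain of smooth muscle and non-muscle myosin II, was without a read in 3 of the 4 samples at 0 h and rose at 2 h (log2 fold change 3.46, SE 0.38, adjusted p = 1.86e-08). It was at 24.4, 38.3, 31.3 and 37.97 (16 h), 1.88 to 10.3 (48 h) and 153, 159.9, 149 and 174 (96 h). *Ankrd1*, a cardiac ankyrin repeat protein and YAP target, had no read at 0 h, a mean of 9.70 at 8 h and 3.08 at 48 h, and 45.6, 44.2, 124 and 113 (96 h). *Cnn2* (calponin 2) was at 178 ± 21.9 (0 h), 618 ± 70.3 (2 h), 171 ± 14.1 (24 h) and 2842 ± 283 (96 h), and its 2 h step of 1.79 on the log2 scale was under the 4-fold limit.

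**Figure D5:**
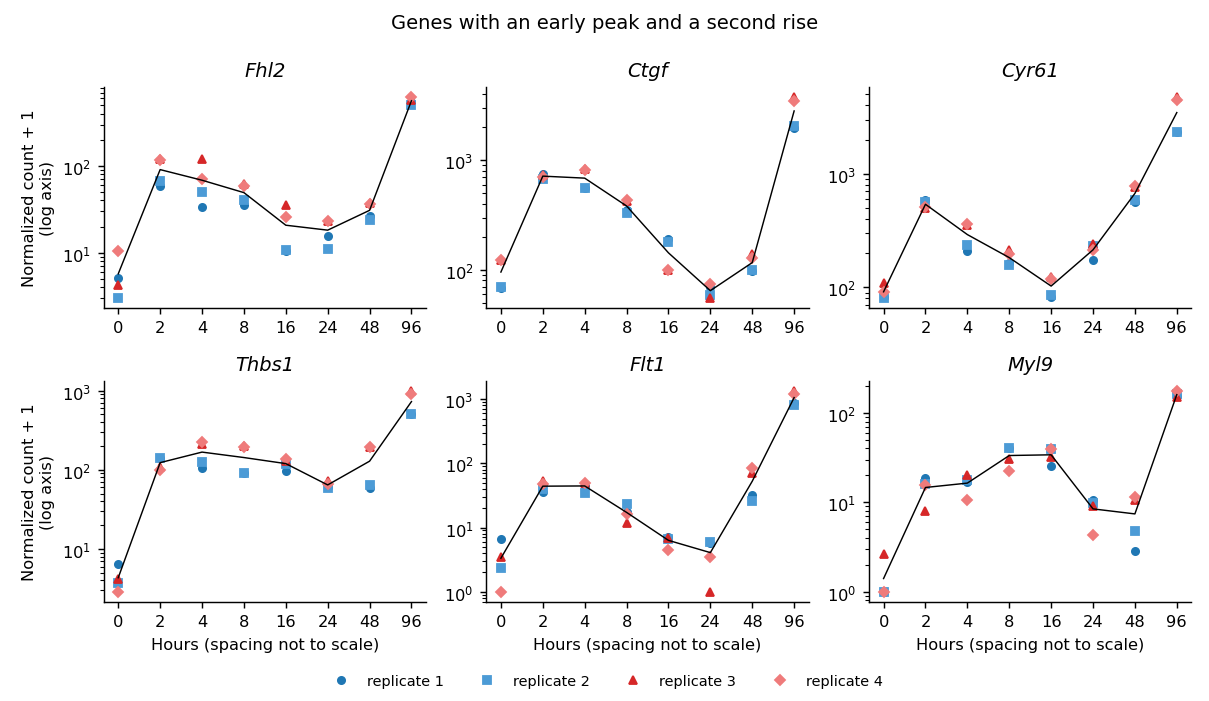
Normalized count + 1 (log axis) of 6 genes called higher at 2 h in each of the 32 samples, by replicate (symbols), with the mean as a line. Each mean line peaks between 2 and 16 h, is lower at 24 h, and stands highest at 96 h, where *Cyr61*, *Ctgf* and *Thbs1* separate into replicates 1 and 2 (lower) and 3 and 4 (higher).

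Of 16 tested actin and smooth muscle contractile genes, 5 were among the 147 (*Cyr61*, *Cnn2*, *Ctgf*, *Myl9* and *Ankrd1*). From 0 to 2 h, 4 of the 16 rose and 0 fell, against 2% and 0.348% of all tested genes. The median log2 fold change of the 16 was 0.89, against -0.03 over all tested genes. From 24 to 48 h none passed in either direction (median 0.46, against 0.00), while 2.51% of all tested genes rose and 1.41% fell. Between 48 and 96 h 10 of the 16 were higher past the limits (background 1.3%), a count that partly restates the rule, since 5 of the 10 are among the 147. The 5 outside them were *Flna* (1499 at 48 h and 9048 at 96 h), *Flnc* (114 and 476), *Cald1* (253 and 1406), *Acta1* (1.39 and 50.3) and *Tagln* (1.83 and 14.3), none of which met the rule. The 10 cardiac and smooth muscle markers summed to 24.5 to 34.3 (48 h) and 70.5 to 123 (96 h). Of these, *Myh7*, a myosin heavy chain of heart and slow muscle, went from a mean of 1.43 (48 h) to 43.99 (96 h), smooth muscle actin *Acta2* from 0.258 to 15.7 and calponin *Cnn1* from 0.987 to 9.14. At 96 h 7 of the 10 were under 10, with *Actc1* at 0.55, *Myh11* at 0.71 and *Nkx2-5* without a read. The part of muscle cells in the levels of the 147 was not tested. The 10 fibroblast markers summed to 29.3 to 45.2 at 96 h, with *Col3a1*, *Lum* and *Dcn* without a read.

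Across all 147 genes, 39 had a lower mean at 24 h than at 0 h before their maximum at 96 h, *Ctgf* and *Cemip* of the 22 above among them. Their median share of the 96 h level went from 7.82% (0 h) to 3.37% (24 h) and 16.0% (48 h). A fall to 24 h was less common among the 147 than over all tested genes. At the false discovery rate alone, 14.3% of the 147 and 30.7% of all tested genes were lower. The median log2 fold change was 1.23 for the 147 and 0.00 for all tested genes. Of the 39, 3 fell past the limits (2.04% of the 147, against 4.34% of all tested genes). *Epas1*, which encodes the hypoxia-inducible factor HIF-2α, was at 431, 511, 475 and 536 (0 h), 39.6, 41.3, 60.9 and 40.8 (24 h), 191, 190.3, 509 and 561 (48 h) and 5282, 5009.6, 6734 and 6407 (96 h). It fell by 3.41 on the log2 scale from 0 to 24 h (SE 0.22, adjusted p = 5.35e-14), then rose from 24 to 48 h (log2 fold change 2.803, SE 0.22, adjusted p = 1.54e-11). At 96 h it was 8.4 times its next-highest mean, that at 2 h. *Adam19* encodes a membrane metalloprotease, and of the 147 genes it had the highest normalized count at 0 h. It was at 703, 1091, 1038 and 1122 (0 h), 101, 98.2, 116 and 116 (24 h), 766, 731, 1326 and 1293 (48 h) and 3245, 3305, 3872 and 3698 (96 h). It fell by 3.17 on the log2 scale to 24 h (SE 0.17, adjusted p = 9.64e-16) and rose by 3.19 to 48 h (SE 0.17, adjusted p = 6.02e-15), and its 48 h and 0 h samples overlapped.

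*Mpeg1*, a perforin-like protein known from macrophages, was the third, at 7.47 ± 2.34 (0 h), 24.3 ± 11.04 (4 h), 0.712 ± 0.96 (24 h) and 80.6, 79.9, 103 and 100.2 (96 h). It fell by 2.42 on the log2 scale from 0 to 24 h (SE 0.40, adjusted p = 7.71e-06). Of the blood cell genes, *Ptprc* was at 0.236, *Spi1* at 0.265 and *Tal1* at 1.68 at 96 h, while *Runx1* was at 14.5 (0 h), 726 (48 h) and 459 (96 h). Their part in the level of *Mpeg1* was not tested. *Fst*, encoding the activin-binding antagonist follistatin, was at 646, 633, 427 and 434 (0 h), 90.1, 105, 207 and 208 (24 h) and 1895, 1888, 2116 and 2141 (96 h). Its change to 24 h was -1.88 on the log2 scale, just short of 4-fold. With the 24 h replicate 3 or 4 left out, 6 genes instead of 3 were called lower at 24 h.

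*Flt1* and *Kdr* encode the receptors VEGFR1 and VEGFR2 for the endothelial growth factor VEGF, and *Cdh5* encodes VE-cadherin, the adhesion protein of endothelial junctions. Their courses before 96 h differed. *Flt1* was at 5.52, 1.36, 2.42 and 0 (0 h), 35.3, 38.5, 52.8 and 45.96 (2 h), 4.804, 5.01, 0 and 2.45 (24 h), 31.1, 24.5, 68.6 and 82.6 (48 h) and 869, 824, 1336 and 1215 (96 h). It rose at 2 h (log2 fold change 4.02, SE 0.46, adjusted p = 3.96e-08), was back at its 0 h range at 24 h, and rose again to 48 h (log2 fold change 3.82, SE 0.46, adjusted p = 6.33e-08). Its 96 h mean was 20.5 times the 48 h mean. *Kdr* was at 19.3, 19.7, 50.8 and 49.1 (0 h), 3.603, 5.63, 14.2 and 16.3 (24 h), 65.01, 79.1, 114 and 116 (48 h) and 219.7, 229, 355 and 298 (96 h), and rose from 24 to 48 h (log2 fold change 3.28, SE 0.38, adjusted p = 3.38e-08). *Cdh5* had 1 read in all at 0 h, so the size of its change rests on the pseudocount, and was at 52.8, 54.4, 138 and 139 (24 h), a rise of 6.26 on the log2 scale (SE 0.54, adjusted p = 3.91e-11). It stood at 58.4, 50.9, 139 and 132 (48 h) and 334, 321, 457 and 406 (96 h).

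The 10 endothelial and blood markers on a fixed list, *Cdh5* and *Kdr* among them, summed to 646 to 1071 (0 h), 920 to 1308 (48 h) and 1225 to 1624 (96 h). Of these, *Pecam1* (CD31) had means of 730.1, 172 and 70.4 at those time points. *Tek*, the angiopoietin receptor TIE2, had 70.2, 17.3 and 235. Most of the 0 h sum was thus *Pecam1*, and the study scored differentiating cells as positive for PDGFRA and negative for PECAM. *Runx1*, a transcription factor gene of blood formation, had the highest 96 h level of the 10. *Hbb-bt* and *Hba-a1*, the adult globins, had no read at 96 h, and 5 of the 10 were under 10. The part of other cells in these levels was not tested. *Pdpn* encodes podoplanin, a mucin-type protein of lymphatic endothelium and of several epithelia. It was at 35.9, 34.6, 95.9 and 98.2 (0 h), 31.2, 31.9, 42.6 and 54.6 (24 h), 359.9, 317, 501 and 525 (48 h, log2 fold change 3.38, SE 0.30, adjusted p = 1.93e-10) and 2641, 2758, 2885 and 3042 (96 h). *Vcam1*, an adhesion receptor for leukocyte integrins, had at most 0.579 mean normalized counts through 24 h, rose to 11.5 ± 7.14 (48 h, log2 fold change 3.26, SE 0.41, adjusted p = 1.13e-07) and was at 71.7 ± 14.02 (96 h). It passed the filter on low counts only through its 96 h samples.

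Genes for matrix and its remodelling numbered 20, of which 11 rose from 24 to 48 h, an interval in which 41.5% of the 147 and 2.51% of all tested genes rose. The groups by role were made with these values known, so their counts are a description and show nothing particular to a group. *Adamts9*, a proteoglycan-cleaving protease, was at 219.7 ± 29.4 (0 h) and 253 ± 83.95 (24 h), with overlapping samples, then at 837, 965, 1364 and 1534 (48 h, log2 fold change 2.23, SE 0.23, adjusted p = 3.03e-09) and 6258, 6214, 6734 and 6400.0 (96 h). *Loxl2*, which crosslinks collagen, rose in both intervals, from 4.28 ± 1.83 to 22.3 ± 8.47 (log2 fold change 2.13, SE 0.33, adjusted p = 2.13e-06) and on to 248 ± 17.6 (log2 fold change 3.49, SE 0.33, adjusted p = 4.84e-10), and stood at 2610.4 ± 464 (96 h). *Timp2*, an inhibitor of matrix metalloproteases, was at 21.2 ± 3.85 (24 h), 218 ± 61.1 (48 h, log2 fold change 3.27, SE 0.55, adjusted p = 1.28e-05) and 1839 ± 53.3 (96 h).

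*Cemip*, a hyaluronan-degrading protein, differed between the replicate pairs at every early time point: it was at 23.5, 27.2, 196 and 204 (0 h), 157, 175, 730.4 and 758 (2 h), 6.01, 7.51, 79.2 and 58.7 (24 h), 663, 769, 1562 and 1684 (48 h) and 3371, 3194, 3869 and 3473 (96 h). It rose from 0 to 2 h (log2 fold change 2.28, SE 0.79, adjusted p = 0.0217) and from 24 to 48 h (log2 fold change 5.54, SE 0.79, adjusted p = 8.59e-07), and both pairs show each step. *Hs3st1* encodes a heparan sulphate sulfotransferase that makes the antithrombin-binding site. It was at 0, 1.36, 1.61 and 3.78 (0 h), 131, 115, 203 and 225 (24 h, log2 fold change 6.13, SE 0.33, adjusted p = 7.29e-16), 1144, 1159, 1539 and 1589 (48 h, log2 fold change 3.04, SE 0.33, adjusted p = 8.35e-09) and 4303, 4176, 4332 and 4308 (96 h). *Chst15*, a chondroitin sulphate sulfotransferase, also rose in both intervals and was at 2804 ± 209 (96 h). *Col27a1*, a fibrillar collagen, was the only collagen gene of 21 tested among the 147, at 38.3 ± 12.2 (24 h), 403 ± 181 (48 h) and 1522 ± 274 (96 h). *Tinagl1* encodes a matricellular protein of basement membranes. It was at 4.14, 2.72, 19.3 and 26.4 (0 h), 119, 92.1, 142 and 121 (2 h, log2 fold change 3.54, SE 0.44, adjusted p = 1.21e-07) and 2953, 2976, 3249 and 3356 (96 h). *Pga5*, a pepsinogen, rose in both intervals (log2 fold change 3.32, SE 0.35, adjusted p = 2.62e-09 and then log2 fold change 3.02, SE 0.35, adjusted p = 3.29e-08) to 2967 ± 102 (96 h). *Spock1*, a testican proteoglycan, was at 1.88, 5.65, 37.8 and 30.96 (48 h) and 358, 359, 403 and 369.7 (96 h).

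Among the 147 genes, 8 encode secreted signals or their antagonists, and 4 of these rose from 24 to 48 h, against 41.5% of the 147 and 2.51% of all tested genes. *Nog* (noggin) blocks BMP ligands. It was at 0, 1.88, 2.03 and 0 (24 h), 10.4, 9.42, 9.68 and 4.13 (48 h, log2 fold change 2.38, SE 0.45, adjusted p = 5.73e-05) and 202, 230.3, 228 and 236 (96 h), 26.7 times the 48 h mean. *Frzb* encodes a secreted Wnt antagonist. It had no read in any sample at 24 h, was at 6.596, 5.65, 19.4 and 22.7 (48 h), at least 15.5-fold higher than the 3 reads over the group that a count of 0 allows, and at 94.4, 89.4, 142 and 120.1 (96 h). *Wnt11*, a ligand of the non-canonical Wnt branch, was at 6.51 ± 4.01 (0 h), 19.5 ± 9.12 (24 h), 42.4 ± 10.4 (48 h) and 153 ± 13.9 (96 h), and no step before 48 h reached 4-fold. *Cxcl12* encodes the chemokine ligand of CXCR4. It was at 0, 0, 4.06 and 0 (24 h), 17.9, 5.65, 20.2 and 15.5 (48 h, log2 fold change 3.27, SE 0.56, adjusted p = 1.36e-05) and 85.95, 95.7, 192 and 165 (96 h). *Csf1*, the macrophage growth factor, was at 11.2 ± 3.89 (48 h) and 84.6 ± 17.9 (96 h). *Igfbp4*, an IGF-binding protein, was at 46.96 ± 35.6 (0 h), 11.02 ± 5.04 (24 h), 63.01 ± 14.4 (48 h, log2 fold change 2.52, SE 0.51, adjusted p = 0.000125) and 224 ± 15.3 (96 h).

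Of 24 tested BMP, TGF-β and activin genes, *Nog* and *Fst* were among the 147, which are 0.965% of all tested genes. From 48 to 96 h, 6 of the 24 fell past the limits and 2 rose (median log2 fold change -0.67), against 2.4% and 1.3% of all tested genes. Of 17 tested Wnt ligands and inhibitors, *Wnt11* and *Frzb* were among the 147. From 48 to 96 h, 2 of the 17 rose and 0 fell (median 0.02).

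Of the 147, which are 0.965% of all tested genes, 4 were solute carriers of the Slc series, of 249 tested. *Slc36a4*, an amino acid transporter, rose from 11.8 ± 4.06 (0 h) to 69.3 ± 5.85 (24 h, log2 fold change 2.51, SE 0.24, adjusted p = 3.15e-10) and was at 324 ± 12.7 (96 h). *Slc24a3* encodes a sodium, potassium and calcium exchanger. It had no read at 0 or 2 h, was at 3.603, 0.626, 2.03 and 2.45 (24 h) and 27.3, 22.6, 36.1 and 33.03 (48 h, log2 fold change 3.35, SE 0.33, adjusted p = 1.23e-09), and at 117, 97.8, 82.8 and 87.9 (96 h). *Slc39a2*, a zinc transporter, and *Slc41a2*, a magnesium transporter, were under 10 mean normalized counts at all earlier time points and at 78.9 ± 23.1 and 64.1 ± 11.4 (96 h). A pair of organic anion transporters was also present: the first, *Slco3a1*, was at 22.6, 15.1, 58.9 and 46.4 (48 h, log2 fold change 2.84, SE 0.50, adjusted p = 2.09e-05) and 604, 576, 705 and 716 (96 h). The other, the prostaglandin transporter *Slco2a1*, was at 163 ± 89.6 (4 h), 24.9 ± 14.5 (48 h) and 357, 342, 818 and 720.5 (96 h).

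The 3 potassium channel subunits, of 50 tested potassium and chloride channel genes, were *Kcng1*, *Kcnq5* and *Kcnk13*. The 147 are 0.965% of all tested genes. *Kcnq5* had the widest gap between 96 h and any other time point of all 147 genes (4.61 on the deposited log2 scale). It had no read at 0 or 24 h, was at 2.83, 1.88, 6.16 and 7.22 (48 h), at least 5.16-fold higher than 3 reads over the 24 h group, and at 192, 229, 226 and 226 (96 h), 48.3 times the 48 h mean. *Kcng1* rose from 2.74 ± 2.11 (0 h) to 34.7 ± 4.65 (24 h, log2 fold change 3.42, SE 0.36, adjusted p = 2.17e-09) and was at 464 ± 45.1 (96 h). *Kcnk13* was at 7.51 ± 5.52, 35.6 ± 15.4 and 127 ± 7.09 at 24, 48 and 96 h.

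The vitamin D-responsive calcium-binding protein *S100g* (calbindin-D9k) had the largest rise of the 147 from 24 to 48 h. It had no read in any sample through 16 h, and was at 0, 0.626, 2.03 and 2.45 (24 h), 93.3, 107, 158 and 156 (48 h) and 691, 677, 668 and 729.9 at 96 h (log2 fold change 5.96, SE 0.29, adjusted p = 4.38e-16 for the 48 h step). *Stra6* encodes the membrane receptor for retinol-binding protein. It was at 1.201, 0.626, 0 and 0.815 (24 h), 21.7, 22.6, 102 and 90.8 (48 h, log2 fold change 4.89, SE 0.42, adjusted p = 9.97e-11) and 427, 392, 646 and 627 (96 h). *Ugt2b34*, a glucuronidating enzyme, had no read through 8 h, rose from 3.77 ± 0.996 (24 h) to 39.3 ± 4.04 (48 h, log2 fold change 3.101, SE 0.25, adjusted p = 1.81e-11) and was at 221 ± 16.99 (96 h). *Hkdc1*, a hexokinase family member, rose in both intervals (log2 fold change 4.58, SE 0.43, adjusted p = 2.18e-10 and then log2 fold change 3.82, SE 0.43, adjusted p = 1.7e-08) and was at 2312 ± 223 (96 h).

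*Adora1*, the adenosine A1 receptor, had the largest rise from 0 to 24 h. It had no read at 0 h and was at 72.1, 59.4, 181 and 194 (24 h), at least 142-fold higher than 3 reads over the 0 h group, then at 137, 164, 276 and 279.7 (48 h) and 733, 737, 809.6 and 719 (96 h). Its 24 h samples split by replicate pair, whereas its 96 h samples did not. *Cryab* encodes the small heat shock protein αB-crystallin. It split more widely between the replicate pairs, at 30.03, 41.9, 54.8 and 69.3 (24 h), 257, 241, 909 and 959.8 (48 h, log2 fold change 3.34, SE 0.55, adjusted p = 8.4e-06) and 2775, 2734, 3731 and 4066 (96 h). *Hdc*, the histidine decarboxylase that makes histamine, passed the test in all 3 comparisons and had its earlier peak at 8 h, with 99.7 ± 39.04 then, 10.7 ± 3.398 (24 h) and 313 ± 51.6 (96 h). *Enpp1* was the other gene called higher in all 3, at 6.19 ± 0.869 (2 h), 5.83 ± 2.33 (24 h), 32.4 ± 5.79 (48 h) and 131 ± 10.01 (96 h). It encodes an ectoenzyme that makes pyrophosphate and lies next to *Ctgf* with no gene between them.

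The membrane-binding *Anxa2* rose at 2 h (log2 fold change 3.48, SE 0.14, adjusted p = 4.17e-18), had its next-highest mean at 8 h (1193 ± 110.2), and was at 5451, 5426, 5144 and 5473 (96 h). *Anxa3*, another annexin, also had its next-highest mean at 8 h, with 141 ± 13.7 (8 h) and 435 ± 41.05 (96 h).

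Of the 147, 8 encode transcription or chromatin regulators, *Epas1* among them. The stress-response factor *Atf3* was at 53.8, 50.3, 43.5 and 33.997 (0 h), 33.9, 26.4, 52.8 and 38.2 (48 h) and 405, 436, 702 and 603 (96 h), and it was the only one of 24 tested amino acid and ER stress response genes among the 147. *Irf4* encodes an interferon regulatory factor of lymphocytes. It was near 0 through 24 h, at 6.596, 9.42, 16.7 and 16.5 (48 h, log2 fold change 3.25, SE 0.41, adjusted p = 1.27e-07) and at 93.4, 107, 218 and 183 (96 h). Like *Vcam1*, it passed the filter on low counts only through its 96 h samples. *Nr2f2* (COUP-TFII) was at 70.2 ± 4.43, *Lhx6* at 114 ± 21.6, *Tcf23* at 107 ± 30.8 and *Msl3* at 1654 ± 93.4 (96 h). None of the 147 was on the lists of PrE regulators, interferon response, antigen presentation, p53 targets, CDK inhibitors, NRF2 targets, hypoxia, metal response or lysosome genes. The 147 are 0.965% of all tested genes, so a count of 0 on such short lists shows little. On the study's own list of PrE genes, 8 of 572 (1.40%) were among the 147, and on its epiblast list 2 of 219 (0.913%).

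The 11 genes that come closest to being off before 96 h, with a mean under 10 at each earlier time point, were *Ankrd1*, *Gjb2*, *Kcnq5*, *Myl3*, *Nog*, *Ptger3*, *Robo2*, *Slc39a2*, *Slc41a2*, *Spon2* and *Trpc5os*. *Robo2*, a receptor for Slit guidance proteins, was at 3.77, 1.88, 13.2 and 13.4 (48 h) and 149.6, 144, 161 and 174 (96 h). *Ptger3*, a prostaglandin E2 receptor, was at 4.71, 0, 5.28 and 6.19 (48 h) and 98.7, 114, 132 and 135 (96 h). *Myl3*, a myosin light chain of heart and slow muscle, was at 3.77, 7.54, 12.3 and 7.22 (48 h, log2 fold change 2.63, SE 0.34, adjusted p = 1.76e-07) and 152, 166, 114 and 145 (96 h). *Spon2*, a secreted matrix protein, was at 10.4, 1.88, 6.16 and 2.06 (48 h) and 111, 109, 163 and 179 (96 h).

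*Gjb2* (connexin 26, a gap junction subunit) was the least even of all 147 genes at 96 h. Its 4 samples there were at 181, 177, 21.3 and 25.5. Replicates 3 and 4 were at 0.131 of replicates 1 and 2. The coefficient of variation was 88.8%, against a median of 10.9% over the 147. *Trpc5os*, at 102, 137, 53.98 and 51.1 (96 h), was also higher in replicates 1 and 2, while *Ankrd1*, *Slco2a1* and *Irf4* above were higher in 3 and 4. The most even was *Vnn1*, a pantetheinase, with a coefficient of variation of 0.525% and samples at 763, 760.4, 756 and 754.

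The largest gaps between 96 h and the next time point after *Kcnq5*, on the deposited log2 scale, were those of *Spock1* (4.37), *Flt1* (4.33), *Thbd* (4.32), *Slco3a1* (4.12), *Nog* (4.101), *Ptger3* (4.02), *Drp2* (3.97), *Robo2* (3.77) and *Crim1* (3.703). *Drp2*, a dystrophin-related protein, was at 18.8, 26.4, 54.5 and 46.4 (48 h) and 591, 549, 672 and 659 (96 h). *Crim1*, a membrane protein that binds BMPs, was at 73.2, 65.4, 122 and 134 (4 h), 62.2, 86.7, 98.5 and 131 (48 h) and 1149, 1153, 1540.2 and 1396 (96 h). At the other end, the genes just inside the required gap of 1.5 were *Kdr* (1.51), *Ehd2* (1.52) and *Zyx* (1.52), and those just outside were *Bace2* (1.4998), *Gnai1* (1.49) and *Qsox1* (1.48). Just above the floor of 6 at 96 h were *Jph1* (6.07), *Slc41a2* (6.11) and *Gjb2* (6.20), and just below it were *P4ha3* (5.93), *Insrr* (5.92) and *Ntn4* (5.85).

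Per kb of exon, the 96 h levels after the keratins were *Cryab* (2249), *Hs3st1* (1919), *Pga5* (1837), *Tfpi* (1757), *Cyr61* (1712), *Pdpn* (1558), *F3* (1483), *S100g* (1441) and *Anxa2* (1440.3), in normalized counts per kb. At 0 h the highest normalized counts among the 147 belonged to *Adam19*, *Fst*, *Epas1*, *Tfpi* and *Rassf3*, at 225 to 988.

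The shares of all 147 that rose, 41.5% from 24 to 48 h and 15% at 2 h, stand beside each count by role that follows. The shares of all tested genes that rose were 2.51% and 2%. The 25 genes of the cytoskeleton and adhesion sites ranged from 81.9 (*Ankrd1*) to 5905 (*Krt8*) at 96 h, and 9 of them rose at 2 h. The 20 receptors and surface proteins ranged from 71.7 (*Vcam1*) to 2861 (*App*, the amyloid precursor protein), and 11 rose from 24 to 48 h. Another 15 were transporters, channels or calcium-binding proteins, of which 7 rose from 24 to 48 h. A further 16 were metabolic or processing enzymes, from 124 (*Msrb3*) to 2312 (*Hkdc1*), of which 10 rose from 24 to 48 h, among them the endothelial lipase *Lipg* (log2 fold change 3.38, SE 0.40, adjusted p = 4.34e-08). There were 10 kinases, phosphatases and their partners, of which 2 rose from 24 to 48 h. The other 20 ranged from 85.9 (*Trpc5os*) to 3326 (*Cryab*). Pairs of adjacent genes with none between them included *Krt8* and *Krt18*, *Ctgf* and *Enpp1*, *Pdpn* and *Lrrc38*, and *Msl3* and *Arhgap6*.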

How the data were processed

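RNA was extracted with TRIzol and sequenced from stranded, poly(A)-selected libraries as single-end 50-base reads. Per the study's methods, reads were trimmed with cutadapt 2.7, mapped to GRCm38.p6 with HISAT2 2.1.0 and counted per gene with featureCounts of Subread 1.6.4. The values deposited by the authors are log2-scale counts after a variance-stabilizing transformation. Its closed form was inverted here from the value at 0 (1.58), giving normalized counts. Dividing these by the worth of 1 read per sample gave whole reads for 100% of values (largest distance from a whole number 3.75e-09), hence each sample's depth of 3190108 to 12301732 reads.

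Changes were tested with limma 3.58.1 (R 4.3.3) with a mean-variance trend on log2(normalized count + 1), which understates the change of low genes. Where a reference group had few or no reads, the fitted fold change depends on the added count and is no bound. All 32 samples entered 1 fit, over genes with at least 10 normalized counts in at least 4 samples, and p-values were adjusted by the Benjamini-Hochberg method over all 15227 genes. The limits were a false discovery rate of 0.1 and 4-fold. On simulated data for 48 h against 24 h with 13693 genes, all 200 changed genes were called with the right sign and 0 unchanged ones. That score holds only for the sizes of change, levels and spread that were simulated. It does not show how reliable the calls are near the 4-fold limit, for low genes or with the replicate pairs apart. Intervals and bounds from reads cover counting error only. Samples were grouped by their labelled time point. Genes were named by a rule: the 10 highest and the 10 widest gaps at 96 h, those nearest each threshold, up to 5 per list or family, the 3 largest changes per comparison and the 5 highest at 0 h; other genes in the text were picked with their values known. The role groups, the promoter windows and the splits by replicate pair were also chosen after the data were seen. The genes and lists were chosen with earlier results of these data known. Gene coordinates are from GENCODE M21 (GRCm38) and promoters from RefSeq (GRCm38.p6). Alternatives covered the pseudocount, filter, scaling, limits, deposited values, limma-voom, replicate block and leaving out each replicate. Some genes and gene groups are not reported here.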

Additional observations from a re-analysis of the deposited data

Results flagged for a closer look

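Of the groups tested, 3 of 79 groups of 4 samples had 1 sample set apart from the other 3 by Dixon's criterion, and chance alone flags about 1 in 20 such groups. *Anxa2* at 96 h was at 5144 in replicate 3 and 5426 to 5473 in the others. *Kcng1* at 96 h was at 531 in replicate 3 and 438 to 448 in the others. *Kcnq5* at 96 h was at 192 in replicate 1 and 226 to 229 in the others. In none of the 3 does the lone sample approach the 48 h level.

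A pair of rows without a gene symbol, which the selection therefore left out, met the same limits. *Krt8-ps*, a processed pseudogene, was at 118 at 48 h and 374 ± 69.7 at 96 h. *Gm37696*, an antisense RNA, was at 25.7 at 48 h and 126 ± 26.9 at 96 h.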

How the results depend on the processing

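Of 159 recomputed counts, 136 stayed within 1.5 times the value reported. A required gap of 1 or 2 in place of 1.5 gave 307 or 77 genes, and without 1 replicate number 139 to 154. The 11 genes under 10 normalized counts before 96 h became 3 with a limit of 5 and 21 with a limit of 20, and 8 to 13 without 1 replicate number. With a pseudocount of 5, 40 genes rose from 24 to 48 h (61 reported) and 28 from 0 to 24 h (48 reported). With genes of a mean of at least 50 only, 37 rose from 24 to 48 h, where only 96 of the 147 genes were tested. With a limit of 2-fold (log2 fold change of 1), 100, 75 and 45 rose from 24 to 48, 0 to 24 and 0 to 2 h, and 13 and 4 fell from 0 to 24 and 0 to 2 h. Fitting the deposited values gave 14 that rose from 0 to 2 h (22 reported). The fall from 0 to 24 h, called for 3, was called for 5 by limma-voom and for 9 with replicates 1 and 2 only. The fall from 0 to 2 h, called for 0, was called for 2 with a pseudocount of 0.5, for 3 by limma-voom and for 2 with replicates 1 and 2 only. The cause of these shifts was not tested. Leaving out 1 sample gave 57 to 64, 47 to 51 and 18 to 25 genes that rose from 24 to 48, 0 to 24 and 0 to 2 h, and 0, 3 to 6 and 0 to 1 that fell. The 6 came without 24 h replicate 3 or 4, and the 1 without 2 h replicate 3 or 4 or 0 h replicate 4. Among 70 tests of single named genes, 1535 recomputed values stayed past the limits in the same direction, 59 no longer passed and 0 reversed.

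Same-numbered samples were no more alike than samples of the other number in their pair (mean correlation of their deviations 0.196 in both, -0.196 with the other pair), so single numbers do not pair the samples, while replicates 1 and 2 kept apart from 3 and 4. With a replicate block, 61, 48 and 22 genes rose and 0, 3 and 0 fell, the same genes as without it. Averaging within the replicate pairs, which was chosen after seeing the data, gave 61, 48 and 21 that rose. Scaling to total reads shifted the log2 fold changes from 0 to 2 h by a median of -0.103 over all genes. Depth limits the lowest genes: 3 reads over a 0 h group are 0.891 normalized counts.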
